A study of Homo sapiens with 15 samples.

Results

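The comparison set 3 libraries of cells expressing the intracellular domain of NOTCH3 (NICD3) directly against 3 libraries of cells expressing that of NOTCH1 (NICD1), which are 6 of the 15 libraries in the study. The members were chosen by their titles and column names, and no measured value entered that choice. In both groups the domain was switched on with doxycycline, for which the labels give neither dose nor duration. The other libraries, 3 each of an empty vector control (EV) and of cells expressing the NOTCH2 or NOTCH4 domain (NICD2 and NICD4), entered through the shared library scaling, gene filter and estimate of the spread, and EV levels are quoted for orientation. The labels do not say which promoter or vector was used, whether a group is 1 clone, or whether replicates are separate cultures, so the p-values measure the spread between these libraries, which may be technical. The genotype field of 1 NICD3 library misspells the domain, and its title, source and description all say NICD3.

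The labels name the cells as HCT116, a human colorectal carcinoma line, whereas the descriptions and column names say U373, a human glioma line. EPCAM, an adhesion protein of epithelia, averaged 221 CPM in NICD1 and 232 CPM in NICD3, where CPM is a gene's read count set against its library's scaled size. CDX2, an intestinal transcription factor, averaged 49.3 and 41.1 CPM. GFAP, the astrocyte filament, averaged 2.09 and 2.65 CPM, and AQP4, OLIG2 and SOX2 had 0 reads in all 6 libraries. Other genes of the astrocyte and glioma list were present, with NES, the neural progenitor filament nestin, at 25.8 and 22.8 CPM, the glutamate transporter SLC1A3 at 14.1 and 23.9 CPM, the brain matrix protein BCAN at 7.58 and 5.66 CPM and ALDH1L1 at 30.2 CPM in NICD3. Not every colorectal marker was present either, since CDX1 had 0 reads and CDH17 and CEACAM5 had at most 2 reads in a group. Genes that define fibroblasts (COL3A1, LUM, FAP), endothelium (CDH5, KDR, TEK) and leukocytes (CD3D, MS4A1, LYZ) had between 0 and 3 reads in each group, and none of the 12 tested genes on those 3 marker lists passed the test in limma or with voom weights (2 at an unadjusted p under 0.05).

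NOTCH receptors are cut at the membrane when a ligand on a neighbouring cell binds them, and the freed intracellular domain moves to the nucleus. There it joins the DNA-binding protein RBPJ and a Mastermind coactivator and switches on target genes, among them the HES and HEY repressors. The 4 human receptors share this route, and their domains differ in length and in their transactivation regions. In the intestine the pathway keeps progenitor cells from becoming secretory cells. The comparison asks which genes differ between cells given the NOTCH3 and the NOTCH1 domain.

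The 6 libraries held from 15648211 to 27704492 counted reads. Ribosomal protein genes took 15.49% to 17.72% of the reads and mitochondrial genes 3.17% to 4.72%. On the first principal component, with 51.9% of the variance, the 3 NICD3 libraries lay on one side and the 3 NICD1 libraries on the other. The second, with 20.5%, set NICD1 replicate 2 and NICD3 replicate 1 apart from the other 4. Those 2 libraries also had the highest ribosomal protein share (17.72% and 17.21%) and the lowest mitochondrial share (3.83% and 3.17%) of their groups. The part of these shares in the results was not tested, and counts of genes are given below with and without both libraries.

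**Figure D1:**
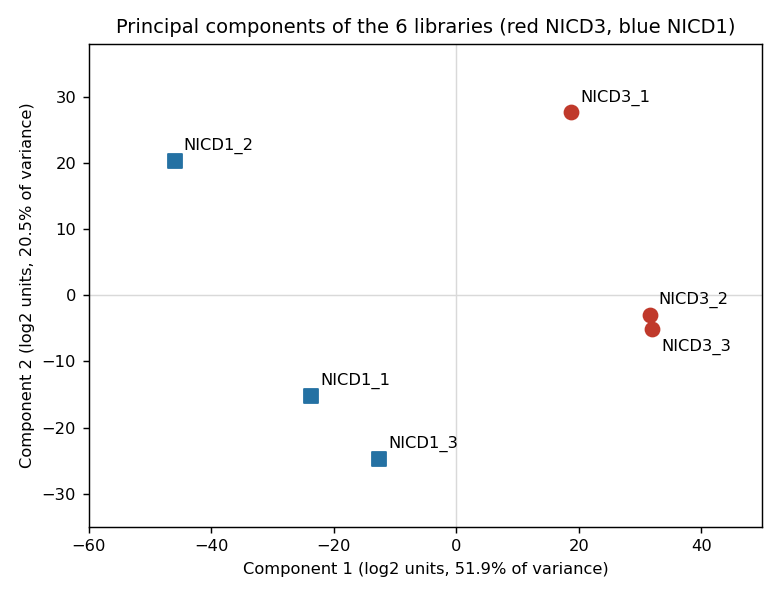
First against second principal component of log2 levels (log2 units) in the 6 libraries, NICD3 as red circles and NICD1 as blue squares. The groups separate along the first component, and NICD1_2 and NICD3_1 stand at 20.32 and 27.65 on the second, above the other 4.

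Of 15122 genes tested, 1004 (6.64%) differed at an adjusted p under 0.05 in limma. NICD3 was higher for 556 of them (3.68% of the genes tested) and lower for 448 (2.96%), and these percentages are the background for every count below. The 3 libraries of one group lay wholly above the 3 of the other for 1001 of the called genes and overlapped for 3. The calls come from these same libraries, so this separation is no separate support for them. Over all 15122 tested genes, called or not, every NICD3 library lay above every NICD1 library for 2409. That number covers the higher direction only, whereas the 1001 called genes count both directions. The changes were mostly small, with a median size of 0.70 on the log2 scale, while 205 genes were at least 2-fold higher and 100 at least 2-fold lower. At 4-fold the numbers were 65 and 18. The median change over all tested genes was 0.01. Where 2 levels are given as one against the other, NICD3 comes first, and where they are joined by "and", NICD1 does.

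The count moved with single libraries. It was 579 without NICD1 replicate 1, 502 without NICD1 replicate 2, 493 without NICD3 replicate 2 and 466 without NICD3 replicate 3, and 386 with NICD1 replicate 2 and NICD3 replicate 1 both left out. The call was kept with each of the 6 libraries left out in turn for 240 higher and 147 lower genes. HP aside, every called gene below belongs to those 387 unless a library is named beside it. Genes called higher had a median transcript GC content of 48.7% and genes called lower 57.3%, against 50.4% for all tested genes. Once the trend of the change on GC content was removed, 517 of the 556 higher and 386 of the 448 lower genes were still called in the same direction, and none changed sign.

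**Figure D2:**
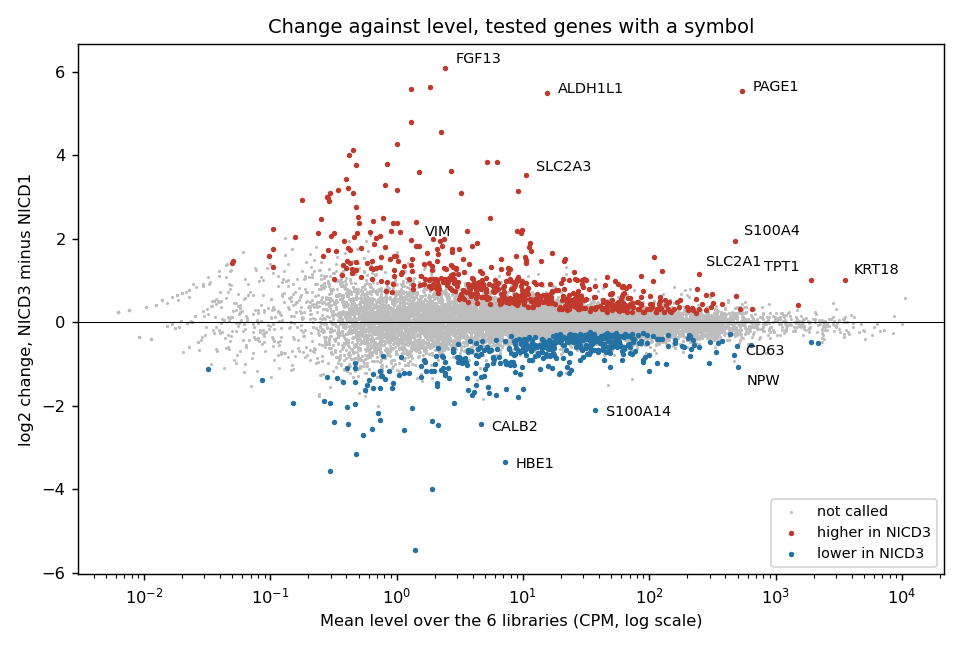
Mean level over the 6 libraries (CPM, log axis) against the log2 change, NICD3 minus NICD1, for tested genes with a symbol (red called higher in NICD3, blue called lower, grey not called). Called changes narrow toward high levels, where KRT18 and TPT1 lie near 1 and PAGE1 at 5.53.

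On the 5 lists of NOTCH pathway genes and targets, 82 genes were tested, of which 5 were called higher and 5 lower (12.2%), and 3 of these calls held with each library left out. Both receptor genes of the comparison are read first, since a domain made from a transgene could add reads to its own gene. NOTCH1 (ENSG00000148400, chromosome 9, 139388896 to 139440314, GRCh37) stood at 26.8, 30.0 and 28.0 CPM in NICD1 and at 22.8, 23.1 and 23.6 CPM in NICD3. NOTCH3 (chromosome 19, 15270445 to 15311792) stood at 13, 12.8 and 12 CPM in NICD1 and at 11.5, 12 and 11.8 CPM in NICD3. NOTCH1 was lower in every NICD3 library, by 0.29 ± 0.08 (log2, SE) at an adjusted p of 0.047. The NOTCH3 levels lay next to each other, and its change of -0.10 ± 0.11 was not called (adjusted p = 0.62). The EV means were 30.8 CPM for NOTCH1 and 10.6 CPM for NOTCH3. How reads from the vectors were treated is not given in the sources used here.

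NOTCH2 was lower in NICD3 at 30.9 ± 1.5 against 36.4 ± 1.3 CPM (SD, n = 3), by -0.24 ± 0.07 (adjusted p = 0.049), and NOTCH4, at 2.09 against 2.19 CPM, was not called (-0.05 ± 0.25, adjusted p = 0.93). The calls of NOTCH1 and NOTCH2 were lost with any 1 of the 6 libraries left out (adjusted p from 0.072 to 0.2 for NOTCH1 and from 0.07 to 0.2 for NOTCH2), and that of NOTCH1 once the GC trend was removed (-0.12, adjusted p = 0.46). None of the 5 tested ligand genes was called in limma, nor with voom weights, and 1 had an unadjusted p under 0.05. JAG2, the most abundant of them, averaged 139 CPM in NICD1 and 125 CPM in NICD3 (adjusted p = 0.22).

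Of the 7 tested HES and HEY repressors with NRARP, 1 was called. HES1, which NOTCH activates directly, stood at 38.5, 37.2 and 43.0 CPM in NICD1 and at 45.5, 51.7 and 49.9 CPM in NICD3, against an EV mean of 19.7. All 3 NICD3 libraries were above all 3 NICD1 libraries, by 0.31 ± 0.08 (adjusted p = 0.036). The call of HES1 was lost without NICD1 replicate 1 (adjusted p = 0.12), NICD1 replicate 2 (0.16), NICD3 replicate 2 (0.16) or NICD3 replicate 3 (0.13), and in 5 other alternatives, with an adjusted p of up to 0.13 when libraries were scaled by total reads. HES4, another repressor of the family, averaged 107 ± 17.6 and 131 ± 7.84 CPM with overlapping libraries (0.30 ± 0.16, adjusted p = 0.28), and NRARP, a feedback inhibitor of the pathway, 40.7 ± 2.91 and 46.5 ± 1.06 CPM (0.20 ± 0.07, adjusted p = 0.1). With the GC trend removed both HES4 (0.69, adjusted p = 1.5e-05) and NRARP (0.43, adjusted p = 0.04) were called higher in NICD3. HEYL averaged 28.2 and 26.9 CPM (adjusted p = 0.71).

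Among 33 other reported NOTCH targets, 3 were called higher and 1 lower. CD44, a hyaluronan receptor, was lower in NICD3, at 57.2, 60.7 and 65.7 CPM against 119, 116 and 117 CPM in NICD1. The groups were far apart, with a change of -0.94 ± 0.09 (adjusted p = 9.7e-06), and both lay above the EV mean of 42.6 CPM. SAT1, which acetylates polyamines, was higher, at 118, 124 and 129 CPM against 78.2, 76.3 and 84.2 CPM (0.64 ± 0.09, adjusted p = 0.0003). PLAU, the urokinase plasminogen activator, was higher at 122 ± 2.03 against 90.1 ± 9.44 CPM (0.44 ± 0.09, adjusted p = 0.01), a call lost without NICD1 replicate 2 (0.058) or NICD3 replicate 3 (0.051) and with scaling by total reads (0.051).

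Of 33 genes of the pathway's machinery, 1 was called higher and 2 lower. NEURL1, a ubiquitin ligase that acts on NOTCH ligands, was at 7.86, 9.75 and 6.16 CPM in NICD1 and at 3.01, 2.47 and 2.43 CPM in NICD3, so that every NICD3 library lay below every NICD1 library (-1.55 ± 0.21, adjusted p = 0.00028). The annotated span of NEURL1 overlaps that of SH3PXD2A, so some reads could belong to either. RBPJ, the DNA-binding partner of the domain, averaged 39.9 ± 0.743 CPM in NICD1 and 32.1 ± 2.14 CPM in NICD3 (-0.31 ± 0.07, adjusted p = 0.017). That of RBPJ was lost without NICD1 replicate 1 (0.063) or NICD3 replicate 1 (0.069). MAML2, a Mastermind coactivator, was called higher at 1.03 against 0.191 CPM (2.17 ± 0.58, adjusted p = 0.038), and the call was lost with any 1 of the 6 libraries left out (adjusted p up to 0.13).

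**Figure D3:**
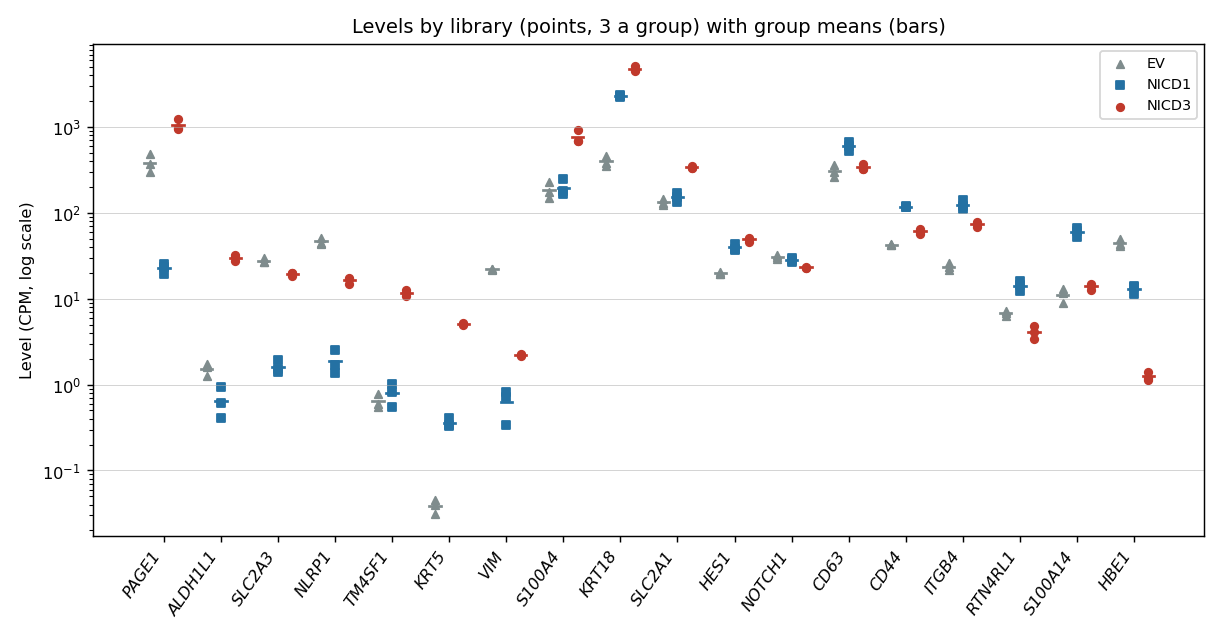
Level in each library (CPM, log axis; EV grey triangles, NICD1 blue squares, NICD3 red circles) with the group mean as a bar, for 18 genes described in the text. HES1 and NOTCH1 differ by little between NICD1 and NICD3, and PAGE1, ALDH1L1 and HBE1 by more than 10-fold.

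The domain has no DNA-binding region of its own and reaches promoters through RBPJ, so the promoters of 3 genes called higher in NICD3 are shown here with the core word that RBPJ binds. The windows run from 250 bases before to 50 bases after the RefSeq start (GRCh38.p14), 5′ to 3′ on the gene's strand, with GTGGGAA or its reverse complement in capitals. HES1 is on chromosome 3, 194135898 to 194136197 (plus strand), PLAU on chromosome 10, 73910360 to 73910659 (plus strand), and TM4SF18, a membrane protein of the tetraspanin-like TM4SF family, on chromosome 3, 149333587 to 149333886 (minus strand).
HES1: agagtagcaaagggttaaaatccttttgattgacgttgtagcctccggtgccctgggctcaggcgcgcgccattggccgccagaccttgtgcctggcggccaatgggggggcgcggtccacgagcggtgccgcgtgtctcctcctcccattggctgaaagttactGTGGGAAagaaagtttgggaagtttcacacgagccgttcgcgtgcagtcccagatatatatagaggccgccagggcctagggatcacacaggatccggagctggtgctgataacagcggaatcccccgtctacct
PLAU: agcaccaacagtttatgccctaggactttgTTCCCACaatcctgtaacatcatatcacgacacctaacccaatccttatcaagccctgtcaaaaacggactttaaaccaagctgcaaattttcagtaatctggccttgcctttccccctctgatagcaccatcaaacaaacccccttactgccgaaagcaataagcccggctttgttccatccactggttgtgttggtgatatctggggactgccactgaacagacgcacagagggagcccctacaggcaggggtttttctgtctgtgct
TM4SF18: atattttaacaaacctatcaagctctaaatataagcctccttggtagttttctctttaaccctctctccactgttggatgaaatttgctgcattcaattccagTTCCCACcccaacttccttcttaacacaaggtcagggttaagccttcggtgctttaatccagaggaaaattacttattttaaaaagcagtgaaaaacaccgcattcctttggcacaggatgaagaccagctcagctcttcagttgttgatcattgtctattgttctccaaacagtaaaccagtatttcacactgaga
Each window holds the word 1 time, starting 85 bases before the start in HES1, 220 in PLAU and 147 in TM4SF18, and it reads on the reverse strand in the last 2. These 3 were picked because they hold the word. Searched on both strands, it occurred in 26 of 429 promoters of genes called higher (6.06%), in 12 of 303 of genes called lower (3.96%), in 631 of 10999 of tested genes (5.74%) and in 1715 of all 27305 promoters (6.28%). A match of letters is a description and not a bound site.

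The largest rises were led in amount by PAGE1, whose NICD3 libraries stood above NICD1 and EV alike. PAGE1, a cancer-testis gene on the X chromosome (49452053 to 49460596), stood at 23.5, 25.6 and 19.4 CPM in NICD1 and at 1240, 975 and 961 CPM in NICD3, with 486, 299 and 372 CPM in EV. The NICD3 mean was 46.4 times that of NICD1, and the log2 change was 5.53 ± 0.20 (adjusted p = 7.1e-10). PAGE1 averaged 988 CPM in NICD2 and 1920 CPM in NICD4. In bulk RNA, fewer cells expressing a gene and less RNA per cell cannot be told apart.

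ALDH1L1, a folate enzyme used as an astrocyte marker, was at 0.41, 0.609 and 0.934 CPM in NICD1 and at 27.7, 32.2 and 30.6 CPM in NICD3, with an EV mean of 1.53 CPM. Here NICD3 stood above both other groups (5.49 ± 0.25, adjusted p = 3.3e-09). Of the 16 astrocyte and glioma markers 6 were tested, and the glutamate transporter SLC1A3 was the other one called higher (adjusted p = 0.0068, and 0.051 with NICD1 replicate 2 and NICD3 replicate 1 both left out). TM4SF1, another TM4SF membrane protein, was highest in NICD3 too, at 0.796 ± 0.238 CPM in NICD1, 11.7 ± 0.797 in NICD3 and 0.641 in EV. STRA6, the receptor for retinol-binding protein, averaged 1.62 CPM in NICD1 and 9.4 CPM in NICD3, and FUZ, a planar polarity gene of cilia, 3.62 and 16.2 CPM, with EV means of 0.472 and 2.98 CPM. KRT5, a basal keratin, was also higher in NICD3 than in NICD1, at 5.07 ± 0.154 against 0.359 ± 0.044 CPM (3.63 ± 0.29, adjusted p = 1.4e-06). So was TM4SF18, at 14.7 ± 0.566 against 3.25 ± 0.609 CPM (2.18 ± 0.22, adjusted p = 1.4e-05). KRT5 was higher still in NICD4 (6.37 CPM) and TM4SF18 in NICD2 (19.8 CPM), while ALDH1L1, TM4SF1, STRA6 and FUZ averaged most in NICD3.

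Other genes with large rises were low in NICD1 and nearer to EV in NICD3. FGF13, an intracellular fibroblast growth factor homologue, had 1 read in all of NICD1 and 309 in NICD3, a ratio of 228 (95% interval 40.6 to 9020, counting error only), and averaged 13.5 CPM in EV. SLC2A3, the neuronal-type glucose transporter, was at 1.91, 1.42 and 1.54 CPM in NICD1, at 18.2, 20.0 and 19.9 CPM in NICD3 and at 27.6 CPM on average in EV (3.54 ± 0.14, adjusted p = 7.1e-10). NLRP1, an inflammasome sensor, was at 1.71, 1.35 and 2.53 CPM in NICD1, at 14.7, 17.4 and 16.9 CPM in NICD3 and at 46.5 CPM in EV. The NICD3 libraries of all 3 genes lay above all NICD1 libraries and below EV. SOHLH2, a germ-cell transcription factor (0.15, 4.32 and 61.4 CPM in NICD1, NICD3 and EV), CD33, a sialic acid receptor of myeloid cells (0.702, 5.77 and 17.9 CPM), and the antisense RNA TMEM132D-AS1 (0.637, 9.66 and 73.3 CPM) had that order too. RINL (1.28, 5.98 and 16.2 CPM) followed it, while CSTA, a cysteine protease inhibitor of squamous epithelia, was higher in NICD3 (15.9 CPM) than in NICD1 (3.57) and EV (7.4).

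Among genes averaging at least 2 CPM over the 6 libraries, the largest falls were smaller than the largest rises. Below that level HP fell further, with 132 reads in NICD1 and 1 in NICD3. That is a ratio of 179, NICD1 over NICD3 (95% interval 31.6 to 7130, counting error only). HBE1, the embryonic beta-like globin (chromosome 11), was at 13.8, 14.2 and 11.5 CPM in NICD1 and at 1.13, 1.19 and 1.42 CPM in NICD3, against 44.6 CPM in EV. Its change was -3.35 ± 0.15 (adjusted p = 1.9e-09), and its annotated span overlaps that of OR51B5, so some reads could belong to either. S100A14, an S100 calcium-binding protein, was at 61.4, 66.5 and 52.5 CPM in NICD1 and at 14.9, 14.0 and 12.8 CPM in NICD3 (-2.10 ± 0.19, adjusted p = 5.8e-06). In this gene NICD1 stood above EV (11.2 CPM) and NICD3 close to it. CALB2, the calcium buffer calretinin, averaged 7.86 CPM in NICD1 and 1.39 CPM in NICD3 with 0.163 CPM in EV. CYP4F11, a fatty acid hydroxylase, averaged 3.63 and 0.632 CPM, with 5.06 CPM in EV.

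Most of the other large falls were of genes that stood above EV in NICD1. RTN4RL1, a NOGO receptor homologue, averaged 14.2 ± 1.87 CPM in NICD1 and 4.12 ± 0.699 CPM in NICD3 (EV 6.77), and TMEM158, a RAS-induced membrane protein, 15.2 ± 1.13 and 4.98 ± 0.42 CPM (EV 6.03). GRM4, a glutamate receptor (11.1 and 3.66 CPM), HS3ST1, a heparan sulfate sulfotransferase (6.26 and 1.96 CPM), FXYD4, a sodium pump regulator (8.19 and 2.52 CPM), SUSD2 (5.61 and 1.79 CPM) and PRDM16-DT (4.49 and 1.2 CPM) were lower as well, each with NICD1 above EV. CPA4, a carboxypeptidase, was lower in NICD3 at 2.79 against 9.51 CPM, with both under EV (22.4 CPM). Less firm were MT-TM, a mitochondrial transfer RNA next to MT-ND2 (adjusted p = 0.054 without NICD3 replicate 1 and 0.063 without NICD1 replicate 2), and RPL7P7, a ribosomal pseudogene inside RERE whose reads may come from its parent gene (adjusted p from 0.075 to 0.091 without NICD3 replicate 2, NICD3 replicate 3 or NICD1 replicate 2).

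By amount of RNA the gain was led by KRT18, a simple-epithelium keratin (chromosome 12, 53342655 to 53346685), at 2380, 2250 and 2320 CPM in NICD1 and at 5100, 4570 and 4500 CPM in NICD3. It changed by 1.02 ± 0.10 (adjusted p = 1.1e-05), with an EV mean of 399 CPM. TPT1, a translationally controlled tumour protein, averaged 1260 ± 77.5 CPM in NICD1 and 2540 ± 75.0 CPM in NICD3 (1.01 ± 0.10, adjusted p = 9.9e-06), where NICD1 was below EV (2200 CPM). S100A4, a calcium-binding protein of motile cells, was at 179, 246 and 167 CPM in NICD1 and at 920, 692 and 680 CPM in NICD3 (1.96 ± 0.21, adjusted p = 2.7e-05). ANXA2 (1720 against 1290 CPM, adjusted p = 0.0047) and S100A10 (593 against 384 CPM, adjusted p = 0.0035), which form a complex at the membrane, were higher too, and both calls were lost with NICD1 replicate 2 and NICD3 replicate 1 both left out (0.079 and 0.072). SLC2A1, the general glucose transporter, was at 154, 135 and 170 CPM in NICD1 and at 338, 336 and 351 CPM in NICD3 (1.17 ± 0.12, adjusted p = 1.6e-05), and NICD1 lay near EV (134 CPM). PLK2, a polo-like kinase, was called higher at 386 against 240 CPM, a call lost without NICD1 replicate 2 (0.055) or NICD3 replicate 3 (0.057).

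Of the 8 gains named by amount 7 held with each library left out, and of the 8 losses 2 did. CD63, a tetraspanin of late endosomes, was at 605, 667 and 521 CPM in NICD1 and at 374, 328 and 328 CPM in NICD3 (-0.79 ± 0.14, adjusted p = 0.0025), and ABCF1, a translation factor of the ATP-binding cassette family, averaged 391 and 198 CPM (-0.97 ± 0.15, adjusted p = 0.0011). These were the 2 losses that held. NPW, neuropeptide W, was called at 320 ± 71.7 against 686 ± 241 CPM, where NICD1 replicate 2 alone stood at 957 CPM. The calls of NPW, HDGF, a growth factor bound to chromatin (513 against 758 CPM), and CAVIN1, a caveolar coat protein (255 against 417 CPM), were lost without NICD1 replicate 1 (adjusted p = 0.1, 0.061 and 0.076), NICD1 replicate 2 (0.22, 0.13 and 0.16), NICD3 replicate 2 (0.17, 0.11 and 0.14) or NICD3 replicate 3 (0.17, 0.1 and 0.13). PLEC, the cytolinker plectin (398 against 595 CPM), lost its call without any library but NICD1 replicate 3 (adjusted p up to 0.22).

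Pathway and cell-state genes were read through 35 lists, chosen with earlier results of these data known. Of 796 tested genes on them, 57 were called higher (7.16%) and 43 lower (5.4%), against 3.68% and 2.96% of all tested genes. With each library left out in turn, 43 of these calls held, as did 387 of the 1004 calls over all genes. In the heat shock list (25 tested) and the nuclear respiratory chain list (42 tested) no gene was called in the main limma fit. The unadjusted p was under 0.05 for 8 and 2 genes, against 3453 of all 15122 tested. The heat shock list had a median change of 0.25, with 21 of 25 genes above 0 (0.22 and 19 with the GC trend removed). In the respiratory list 21 of 42 were above 0. With the GC trend removed, 5 heat shock genes were called higher and 0 respiratory ones were called. The fit with voom precision weights called 1 and 0.

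**Figure D4:**
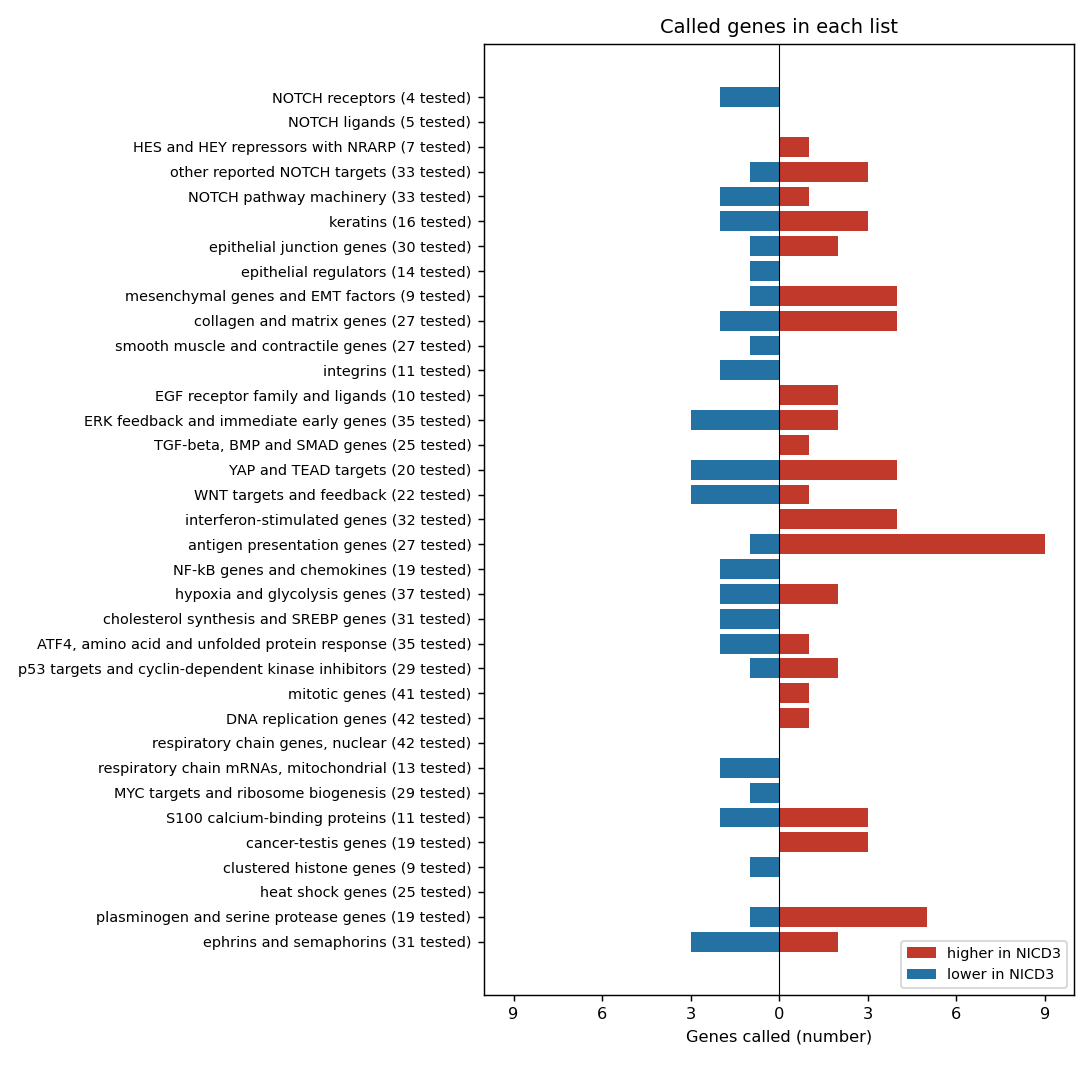
Number of genes called higher (red, right) and lower (blue, left) in NICD3 in each list, with the number tested in parentheses. The antigen presentation list has the most, with 9 higher and 1 lower of 27.

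Among 16 tested keratins 3 were called higher and 2 lower, with a list median of 0.41 (0.01 for all genes). Beside KRT18 and KRT5, KRT23 was higher, at 2.70, 2.79 and 2.99 CPM against 0.273, 0.0677 and 0.275 CPM (3.61 ± 0.39, adjusted p = 2.8e-05). KRT7, at 11.8 ± 1.64 against 27.5 ± 4.51 CPM (-1.21 ± 0.18, adjusted p = 0.00069), and KRT80, at 36.3 against 57.9 CPM (-0.68 ± 0.11, adjusted p = 0.0014), were lower. KRT8, the pairing partner of KRT18, averaged 8490 ± 1200 and 12700 ± 1910 CPM, just missed the threshold (0.58 ± 0.17, adjusted p = 0.051) and was called in 8 of the alternative fits, among them the one with the GC trend removed (0.64, adjusted p = 0.0035). The annotated spans of KRT8 and KRT18 overlap by 1084 bases. EPCAM and CDH1, the epithelial cadherin, were not called (adjusted p = 0.77 and 0.89). KLF5, a transcription factor of intestinal progenitors, was the 1 of 14 epithelial regulators called, lower at 22.7 ± 1.49 against 35.9 ± 1.98 CPM (-0.66 ± 0.08, adjusted p = 0.00011).

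Of 9 tested mesenchymal genes and EMT factors, 4 were called higher and 1 lower. VIM, the mesenchymal filament vimentin, was at 0.82, 0.339 and 0.715 CPM in NICD1 and at 2.13, 2.29 and 2.20 CPM in NICD3. The difference was called (1.82 ± 0.32, adjusted p = 0.003), but both levels lay far under the EV mean of 22.1 CPM. SPARC, a matrix glycoprotein, had the same order at 0.259, 1.23 and 6.52 CPM in NICD1, NICD3 and EV. SNAI2, a repressor of epithelial genes, was called at 0.953 against 0.314 CPM (1.48 ± 0.35, adjusted p = 0.02), and AXL, a receptor tyrosine kinase, was lower at 62.4 against 87.6 CPM. The calls of SNAI2 and AXL were lost without NICD1 replicate 2 (0.1 and 0.085), NICD3 replicate 2 (0.052 and 0.081) or NICD3 replicate 3 (0.1 and 0.06), and that of SPARC with NICD1 replicate 2 and NICD3 replicate 1 both left out (0.053).

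The matrix and adhesion genes split. Of 27 collagen and matrix genes 4 were called higher and 2 lower, led by CCN1, a secreted matrix signal, at 53.9, 54.9 and 54.3 CPM in NICD1 and at 152, 157 and 177 CPM in NICD3 (1.57 ± 0.09, adjusted p = 7.5e-08). The groups did not overlap, and EV was higher than both (250 CPM). Of the laminin chains, LAMB1 was higher (13.7 against 8.03 CPM, 0.78 ± 0.14, adjusted p = 0.0031), and its span overlaps DLD. LAMB3, of the laminin that anchors epithelia to their basement membrane, was lower (11.2 against 19.0 CPM, -0.75 ± 0.13, adjusted p = 0.002). ITGB4, the integrin chain that binds that laminin, was lower too, at 78.0, 74.1 and 68.1 CPM against 121, 143 and 112 CPM (-0.77 ± 0.12, adjusted p = 0.00088), and ITGB5 was lower at 46.4 against 60.9 CPM. These were the 2 called of 11 integrins. THBS1, an inhibitor of vessel growth, was called higher at 38.8 against 19.4 CPM, without NICD1 replicate 2 or NICD3 replicate 3 no longer so (0.053 and 0.056).

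CCN1 is also a target of YAP and TEAD, the transcription factors that answer to cell stretch. Of 20 tested genes of that list 4 were called higher and 3 lower, with a list median of 0.21. ANKRD1, a nuclear ankyrin-repeat protein and frequently used YAP reporter, was at 0.273, 0.203 and 0.33 CPM in NICD1 and at 1.51, 1.69 and 1.64 CPM in NICD3 (2.39 ± 0.21, adjusted p = 4e-06), under an EV mean of 7.22 CPM. TEAD1 was higher at 18.1 against 12.8 CPM (0.49 ± 0.10, adjusted p = 0.0072), with an adjusted p of 0.051 without NICD3 replicate 3. CRIM1 (6.15 against 9.45 CPM) and NT5E, the ectonucleotidase CD73 (8.0 against 12.2 CPM), were lower, NT5E not so with NICD1 replicate 2 and NICD3 replicate 1 both left out (adjusted p = 0.064).

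Of 27 tested antigen presentation genes 9 were called higher and 1 lower, with a median of 0.21. The class II chain HLA-DRA was at 0.752, 0.677 and 0.989 CPM in NICD1 and at 2.51, 2.79 and 2.69 CPM in NICD3 (1.67 ± 0.28, adjusted p = 0.0015), with 0.0283 CPM in EV. HLA-DPA1 was at 1.02, 0.542 and 1.54 CPM and at 3.26, 3.80 and 3.66 CPM (1.84 ± 0.28, adjusted p = 0.00086), and its span overlaps HLA-DPB1. These levels are low, and they were the 2 of the 10 calls that held with each library left out. CD74, the class II invariant chain (0.65 against 0.172 CPM), lost its call without NICD1 replicate 1 (0.07) or NICD3 replicate 1 (0.06), and CIITA, the master regulator of class II genes (0.641 against 0.25 CPM), without any library but NICD1 replicate 3 (adjusted p up to 0.11). The span of CIITA overlaps that of DEXI. HLA-DRB1 and HLA-DRB5, near-identical copies that can share reads, HLA-DMB, HLA-F and PSMB9, an immunoproteasome subunit, were the other higher calls, and NLRC5, the activator of class I genes, was the lower one (6.03 against 9.45 CPM). These 6 calls were each lost without NICD1 replicate 2 (adjusted p from 0.068 to 0.2) or NICD3 replicate 2 (from 0.06 to 0.18), and each without at least 1 other library. Among 32 interferon-stimulated genes 4 were called higher and none lower, of which IFI35 held, at 11.5, 10.3 and 9.97 CPM against 4.44, 5.15 and 4.29 CPM (1.19 ± 0.14, adjusted p = 6.9e-05).

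Of 37 hypoxia and glycolysis genes 2 were called higher, SLC2A3 and SLC2A1, and 2 lower, with a median of 0.08. The lower ones were DDIT4, an inhibitor of the growth kinase mTOR (39.8 against 60.4 CPM, adjusted p = 0.0017), and NDRG1, a stress-induced gene (22.1 against 31 CPM, adjusted p = 0.0016). That of DDIT4 was lost once the GC trend was removed (-0.41, adjusted p = 0.14). The annotated span of SLC2A3 overlaps that of NECAP1.

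Secreted signals and proteases included some clear differences. NRG1, a ligand of the ERBB receptors, was at 73.2, 66.8 and 77.1 CPM in NICD1 and at 144, 135 and 148 CPM in NICD3 (0.98 ± 0.11, adjusted p = 3.7e-05), where EV averaged 87.7 CPM. SEMA3A, a secreted guidance cue, had 0 reads in NICD1 and 2.57, 3.07 and 2.20 CPM in NICD3, at least 41-fold higher with 3 reads over the group as the floor. Its receptor NRP1 was lower at 1.18 ± 0.127 against 2.79 ± 0.845 CPM (-1.16 ± 0.21, adjusted p = 0.0037). Of 31 ephrin and semaphorin genes 2 were called higher and 3 lower in all.

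Of 19 plasminogen and serine protease genes 5 were called higher and 1 lower. PRSS23, a serine protease, was at 6.01, 4.40 and 5.66 CPM in NICD1 and at 17, 17.2 and 18.6 CPM in NICD3 (1.72 ± 0.20, adjusted p = 6.7e-05), and its span overlaps FZD4. SERPINE2, an inhibitor of thrombin and urokinase, was higher at 41.8 ± 2.24 against 20.8 ± 1.52 CPM (1.01 ± 0.09, adjusted p = 5e-06), and KLK6, a kallikrein, at 21 against 12.7 CPM (adjusted p = 0.0097, and 0.12 with NICD1 replicate 2 and NICD3 replicate 1 both left out). SERPINB5, the inhibitor maspin, was lower at 0.161 against 1.11 CPM (-2.56 ± 0.38, adjusted p = 0.00059). In the WNT list, with 1 called higher and 3 lower of 22, the feedback inhibitor NKD2 was lower and held, at 14.8 ± 0.889 against 27.0 ± 3.45 CPM (-0.86 ± 0.13, adjusted p = 0.00063).

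Among 41 mitotic genes 1 was called, PLK1, the polo-like kinase of mitosis, higher at 195 ± 2.08 against 151 ± 10.9 CPM (0.37 ± 0.08, adjusted p = 0.013) and lost without NICD1 replicate 2 (0.07) or NICD3 replicate 3 (0.051). The list's median change was 0.24, with 36 of 41 genes above 0, against a median of 0.01 for all tested genes. With the GC trend removed the list's median was 0.15, with 34 genes above 0. Among 29 MYC targets and ribosome biogenesis genes NOP58, a box C/D snoRNP core protein, was called lower, at 252 against 348 CPM (adjusted p = 0.011, and 0.079 with NICD1 replicate 2 and NICD3 replicate 1 both left out). Of the 13 mitochondrial respiratory mRNAs 2 were called lower, MT-ND3 (1800 against 2530 CPM) and MT-ND2 (1590 against 2190 CPM), with a list median of -0.26 and no gene above 0. The call of MT-ND3 was lost without NICD1 replicate 1 (0.075), NICD1 replicate 2 (0.055), NICD3 replicate 2 (0.071) or NICD3 replicate 3 (0.072), and that of MT-ND2 without any library but NICD1 replicate 2 (adjusted p up to 0.15). Of 172 tested ribosomal protein pseudogenes 18 were called lower and 1 higher, while 0 of 80 ribosomal protein genes were called in limma (3 at an unadjusted p under 0.05 and 1 called with voom weights), and without NICD1 replicate 2 only 2 of the pseudogenes were, although their median change was -0.47 there and -0.50 with all libraries. Reads of such copies can come from the parent genes.

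Some called genes were neighbours on a chromosome, a pattern seen after the values were known, so the genes named here were chosen with their values in view. Reading the tested genes in genome order (GRCh37), 6 runs of at least 4 consecutive genes were called in the same direction, all 6 higher in NICD3, and 3 of them lay on chromosome 13. On that chromosome 13.2% of the 243 tested genes were called higher, against 3.68% of all genes. The stretch from UFM1 to ZC3H13 (chromosome 13, 38923986 to 46626894) held 31 tested genes, of which 23 were called higher and none lower. Its limits were drawn from these calls. It starts at the first run on chromosome 13 and ends at the last called gene before more than 5 uncalled genes in a row. The share of calls inside it and the lack of calls just after it thus follow in part from that rule. The 10 tested genes after it held 0 calls, and the 10 before it 2 higher.

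The called genes of this stretch had a median change of 1.04, with 15 of 23 between 0.8 and 1.2, and 19 of the 23 calls held with each library left out. UFM1, a ubiquitin-like modifier, was at 12.1, 14.9 and 13.7 CPM in NICD1 and at 30.2, 26.7 and 27.0 CPM in NICD3. MRPS31, a mitochondrial ribosomal protein, averaged 17.6 and 35.6 CPM, TSC22D1, a transcription regulator, 29.5 and 62.3 CPM, and VWA8 3.44 and 9.99 CPM. TPT1, described above for its abundance, lies in the stretch. In each of these 5 genes every NICD3 library was higher than every NICD1 library. The same held for 26 of the 31 tested genes of the stretch and for 2409 of all 15122 tested genes. The 5 were taken from the called genes, so their separation is no separate support. FOXO1, a forkhead factor inside the stretch, was not called (3.95 and 3.85 CPM, adjusted p = 0.93), nor was DNAJC15 (25.6 and 29.1 CPM, adjusted p = 0.36).

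Set against EV, the median gene of the stretch stood at -1.49 on the log2 scale in NICD1, -0.44 in NICD3, -0.27 in NICD2 and -0.72 in NICD4, so NICD1 was the lowest of the groups there. In the rest of chromosome 13 the medians were -0.41 in NICD1, -0.35 in NICD3, -0.19 in NICD2 and -0.65 in NICD4. Over all tested genes they were -0.09, -0.07, -0.04 and -0.14 in the same order. In the 10 genes before the stretch they were -1.14 in NICD1 and -1.27 in NICD3. Gene copy number was not measured here, so its part in the levels of TPT1 and the other genes of the stretch was not tested.

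**Figure D5:**
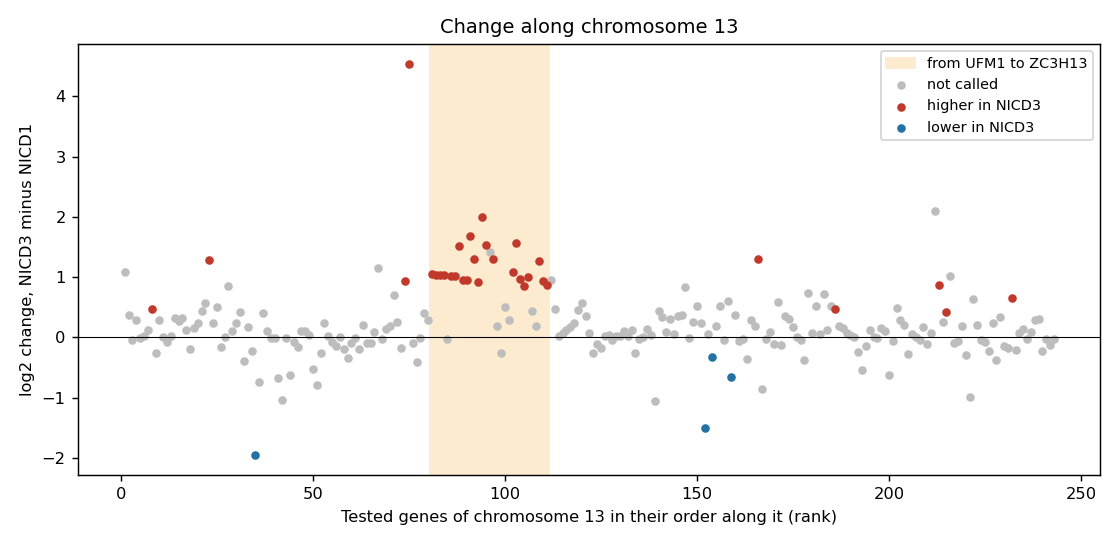
Log2 change, NICD3 minus NICD1, of the 243 tested genes of chromosome 13 in their order along it (rank), red called higher, blue called lower, grey not called. The stretch from UFM1 to ZC3H13, whose limits were drawn from the calls, is shaded. Of the 31 shaded genes 23 are called higher, from 0.86 to 2.0, and the median of the 10 genes before the stretch is 0.27 and of the 10 after it 0.30.

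Of the other runs, those on chromosomes 1 and 2 are described here. On chromosome 2 (224461658 to 225450110) 6 genes in a row from SCG2 to CUL3 were higher by 0.82 to 3.18, among them SERPINE2 and CUL3, a ubiquitin ligase scaffold (84.0 ± 1.23 against 47.6 ± 4.25 CPM). On chromosome 1 (192778169 to 193223031) the 5 genes from RGS2 to CDC73 were higher by 0.45 to 1.81, with UCHL5, a proteasome deubiquitinase, at 17.3 ± 2.20 against 4.93 ± 1.00 CPM. EV averaged 23.6 CPM for UCHL5 and 93.5 CPM for CUL3, where NICD3 averaged 17.3 and 84.0 CPM. The call of CDC73 was lost without NICD1 replicate 1 (adjusted p = 0.094), NICD1 replicate 2 (0.093), NICD3 replicate 2 (0.079) or NICD3 replicate 3 (0.11), with scaling by total reads (0.067) and with the GC trend removed (0.32, adjusted p = 0.068).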

How the data were processed

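The study made 15 polyA RNA-seq libraries (TruSeq kit), of which 6 are compared here. Per the file headers, the deposited log2 values come from raw read counts with 1 added, without scaling to depth. Taken back from log2, 100% of the deposited values were whole reads to within 0.001. The submitters' processing notes name TopHat2 2.0.6, HTSeq and GRCh37. The sources used here give no settings and no strandedness, so overlapping and antisense genes may share reads.

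Reads were scaled by trimmed-mean-of-M (TMM) factors computed in R 4.3.3. A gene was tested if it reached 0.548 CPM (10 reads at the median depth) in 3 or more libraries and 15 reads in total. The fit was limma 3.58.1 on log2(scaled reads + 1) over all 15 libraries with a trended, robust prior (statmod 1.5.0) and the contrast NICD3 minus NICD1. The added 1 equals 0.0544 CPM, so changes of genes near it are understated. P-values are two-sided, with Benjamini-Hochberg adjustment over all 15122 tested genes, and genes under 0.05 are called. The script was tested on simulated data. Transcript GC content was known for 97.5% of them. Levels are TMM-scaled CPM, means ± SD with n = 3, and changes are log2 ± SE.

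Named genes are called, average at least 2 CPM over the 6 libraries and do not overlap between groups. They are the 15 largest rises, the 15 largest falls and the 8 largest CPM differences each way, joined by list members and by the 4 NOTCH receptor genes. Members and lists were chosen with earlier results of these data known. Alternatives varied the scaling, the added reads, the filter, the libraries, the weights, the prior, the GC trend and the replicate block.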

Additional observations from a re-analysis of the deposited data

How the results depend on the processing

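The 1004 calls stayed within 1.5 times in the 13 alternative fits that leave out no NICD1 or NICD3 library. The counts ran from 842 with no low-count filter to 1413 with the GC trend removed. Among these fits is the one on the 6 libraries alone, with 976 calls, which leaves out EV, NICD2 and NICD4. No called gene changed sign under any alternative. The share called higher was 55.4%, and 48.6% with scaling by total reads. With a single library left out, the count ranged from 466 to 952, that of genes called higher from 279 to 565 and that of genes called lower from 187 to 387. With NICD1_2 and NICD3_1 both left out, an alternative added after the data were seen, 386 genes were called, 248 higher and 138 lower, of which 376 are among the 1004. Fewer libraries raise the uncertainty of every contrast. The titles number the replicates 1 to 3 in both groups, but same-numbered libraries did not deviate together (r = -0.116, -0.163 and 0.235), so the numbers were not taken as pairs. The fit with the replicate block called 972 genes, 543 higher and 429 lower, and 1356 when the GC trend was taken out too. HP aside, 105 called genes are named in the report. Of these, 68 kept the call in all 20 alternative fits. The call was lost with at least 1 single library left out for 29, and in at least 1 of the other alternatives for 36. Scaling by total reads ended the calls of RBPJ (adjusted p = 0.11), MT-ND2 (0.14), PLK1 (0.058) and NOP58 (0.059) among them. For genes under about 1 CPM, such as MAML2, CD74 and SNAI2, depth limits the precision.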
